A study of Mus musculus with 12 samples.

Results

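Unnamed assembled loci are stretches of the genome to which a transcript assembler assigned reads but for which the deposited table gives neither a gene name nor an annotated Ensembl transcript. The set described here holds the 1788 such loci that reached at least 1 FPKM (fragments per kilobase of transcript, scaled to the mapped fragments of the library) in at least 3 of 12 libraries, of 23530 unnamed loci and 99547 loci in all. The members were thus selected on their FPKM over the same 12 libraries, so their level is a description and not a finding.

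The study sequenced ribosome-bound RNA from the distal colon myenteric plexus of 12 C57BL/6 mice, 7 males and 5 females, in 4 groups of 3. Every mouse, controls included, had the genotype Sox10::CreERT2+/- / Rpl22tm1.1Psam/J and received tamoxifen in its chow at 400 mg/kg for 2 weeks and plain chow for 1 week. In this RiboTag line a Cre recombinase made in cells that use the Sox10 promoter, among them enteric glia, switches on an epitope-tagged ribosomal protein, and antibody to the tag pulls down ribosomes with their RNA. Saline_Vehicle mice had a 0.1 ml saline enema and injections of 0.1% DMSO, and DNBS_Vehicle mice had an enema of 5 mg DNBS (di-nitrobenzene sulfonic acid, a hapten that inflames the colon) in 50% ethanol with the same injections. Saline_GR159897 and DNBS_GR159897 mice had the corresponding enemas and 0.5 mg/kg GR159897, which blocks the neurokinin-2 receptor (a receptor for tachykinin peptides), in 0.1% DMSO. Injections ran daily over 3 days from 24 hours before the enema, and tissue was taken 48 hours after it. The labels list ethanol for the DNBS enema only, so DNBS and ethanol cannot be told apart. They give no age and no litter, and p-values measure the spread between these mice.

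As background, an assembler joins aligned reads into transcript models whether or not a catalogue knows them, and it numbers each resulting locus. As a class, loci without a catalogue entry are known to include long noncoding RNAs, gene ends that run past their annotated limits, and transcribed repeats. Most long noncoding RNAs are made at lower levels than messenger RNAs and in fewer cell types.

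The table gives no position for any locus and names no genome build. Locus numbers followed genome order: of 22585 consecutive annotated loci placed with GENCODE release M21 (GRCm38), 32 steps changed chromosome. All 22330 annotated loci whose 5 numbered neighbours on each side shared a chromosome lay on that chromosome, and 97.5% lay inside the span of those neighbours, which had a median of 880 kb. Order was looser between direct neighbours: 88.23% of consecutive pairs on 1 chromosome were in rising order, and 76.73% of annotated loci lay between the loci numbered directly before and after them. By the same numbering 1772 of the 1788 members could be given a chromosome and the annotated genes next to them in number, and 16 could not. A gene named beside a locus below is therefore its neighbour in numbering and may not be the nearest gene, with strand and distance unknown.

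One library stood apart from the rest. In DNBS_GR159897 replicate 1, loci with an annotated transcript held 22.6% of summed FPKM, against 53.8% to 95.1% in the other 11 libraries. The 8 markers of enteric glia summed there to 10.4 FPKM, against at least 279 in the other groups. The 10 epithelial markers summed to 1414 FPKM against at most 74.8 in any other library. Smooth muscle markers summed there to 300 FPKM and 7 neuronal markers to 5.78, against at least 1734 and 117 in the other groups. Across the 1788 members its FPKM values correlated with those of other libraries at 0.22 to 0.44 on the log2 scale (a description over loci of the same libraries). Pairs of a DNBS and a saline library, this one included, ranged from 0.22 to 0.49. Results are therefore given with and without DNBS_GR159897 replicate 1. Markers of smooth muscle were present in every group, with sums over 7 genes of 3306 to 4344 FPKM in Saline_Vehicle, where the glial markers summed to 279 to 584 without Gfap, which is blank in those 3 libraries.

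Members were mostly single-transcript models at low level. Of the 1788, 1642 (91.8%) had a single assembled transcript, against 15.0% of tested loci with an annotated transcript and 97.1% of tested loci that had a name but no annotated transcript. The largest held 14 transcripts. The median over members of the mean FPKM was 0.84, 51 members averaged 10 FPKM or more, and 7 averaged 100 or more. Detection was patchy: 18471 unnamed loci reached 1 FPKM in a single library, 2962 in exactly 2, and 309 in none. Among members, 840 reached it in exactly 3 libraries and 40 in all 12. Around the threshold, 225 members had a third-highest value of 1 to 1.1 FPKM and 253 loci just outside it had one of 0.9 to 1. Without DNBS_GR159897 replicate 1, 1450 loci would still meet the rule and 338 would not.

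Unnamed loci held a larger share of summed FPKM in DNBS mice than in saline mice. FPKM is scaled to transcript length, so this is not a share of reads. In Saline_Vehicle the members held 1.91%, 2.59% and 1.37% of summed FPKM in replicates 1 to 3. In DNBS_Vehicle they held 4.89%, 9.34% and 3.37%. In Saline_GR159897 they held 1.07%, 3.61% and 3.94%, and in DNBS_GR159897 10.49%, 6.5% and 7.41%. All 3 libraries of each DNBS group were above all 3 of the saline group with the same injections, although the lowest DNBS_Vehicle library was below both higher Saline_GR159897 libraries.

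**Figure D1:**
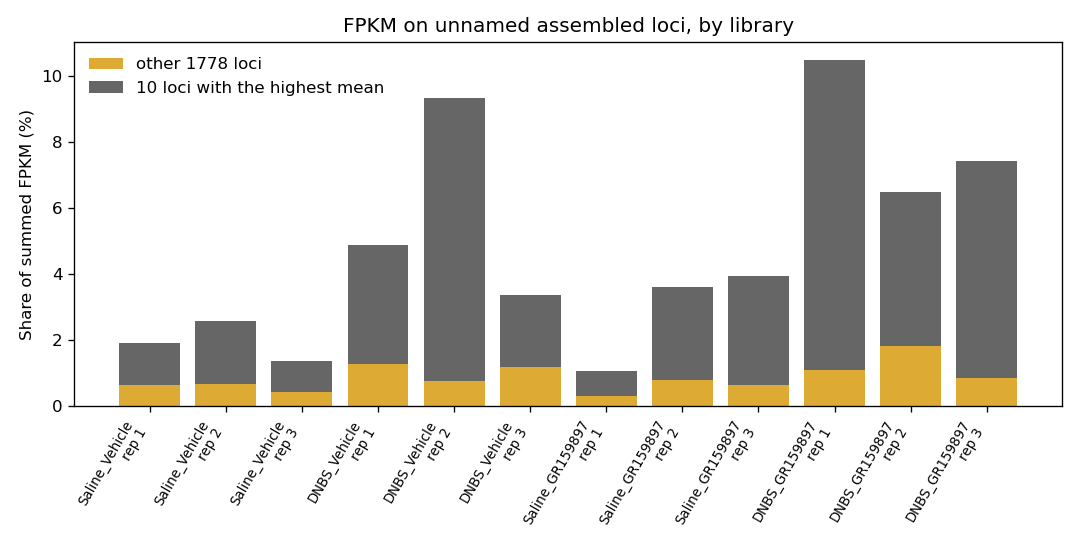
Share of each library's summed FPKM (%, vertical axis) on the 1788 unnamed loci, 1 bar per library in the 4 groups; grey marks the 10 loci with the highest mean and yellow the other members. DNBS libraries hold 3.37% to 10.49% and saline libraries 1.07% to 3.94%, most of it on the 10 highest loci.

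The group means were 1.95% ± 0.61 (SD, n = 3) in Saline_Vehicle, 5.86% ± 3.1 in DNBS_Vehicle, 2.87% ± 1.57 in Saline_GR159897 and 8.13% ± 2.09 in DNBS_GR159897. Over both drug arms the share was 4.58 percentage points higher with DNBS (exact permutation test within drug arms, two-sided, p = 0.005, the smallest its 400 relabellings can give; adjusted p = 0.015 over 6 tests). Without DNBS_GR159897 replicate 1 the DNBS_GR159897 mean was 6.95% ± 0.64 (n = 2) and the DNBS difference 4.0 points (exact permutation p = 0.005, adjusted 0.03). Because the rule itself asked for a level, the same comparison was made over all 23530 unnamed loci with no threshold, where the DNBS difference was 5.99 points (exact permutation p = 0.005, adjusted 0.015). GR159897 made no difference that passed: the share was 1.59 points higher with the antagonist (exact permutation p = 0.205, adjusted 0.246).

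The sums behind these shares were 5098, 7483 and 3811 FPKM in Saline_Vehicle and 16895, 37526 and 11049 in DNBS_Vehicle. They were 2906, 11119 and 12318 FPKM in Saline_GR159897 and 51248, 22850 and 29409 in DNBS_GR159897. The ratio of geometric means was 3.64 in the vehicle arm and 4.42 in the antagonist arm, and neither pair of groups overlapped (exact permutation p = 0.1 for each, the smallest that 3 against 3 allows). The log2 sum was 2.0 higher with DNBS over both arms (exact permutation p = 0.005, adjusted 0.015), or 1.84 higher without DNBS_GR159897 replicate 1 (exact permutation p = 0.01, adjusted 0.03). With the antagonist it was 0.63 higher (exact permutation p = 0.195, adjusted 0.246).

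The 10 highest members carried 65.1% to 91.9% of all member FPKM in a library. The other members together held 0.58% ± 0.14 of summed FPKM in Saline_Vehicle, 1.07% ± 0.28 in DNBS_Vehicle, 0.58% ± 0.25 in Saline_GR159897 and 1.26% ± 0.5 in DNBS_GR159897. With the 10 set aside, the DNBS difference was 0.59 points and the log2 sum 1.43 higher (exact permutation p = 0.005 for each, adjusted 0.015).

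Other measures also differed between the groups. Of those given here, the neutrophil sums and the FPKM total of the library did so without overlap in both arms. That total, by which the shares were divided, was 266932 to 289006 in Saline_Vehicle and 327794 to 401921 in DNBS_Vehicle. It was 271599 to 312962 in Saline_GR159897 and 351424 to 488723 in DNBS_GR159897. FPKM on loci with a name but no annotated transcript was 5.5% to 12.7% of the sum in Saline_Vehicle and 11.5% to 36.1% in DNBS_Vehicle, 3.6% to 19.5% in Saline_GR159897 and 26.8% to 61.2% in DNBS_GR159897. Of 3 loci known to lie at ribosomal RNA repeats, 2 were in the table; they summed to 16.5 to 124 FPKM in Saline_Vehicle, 110 to 193 in DNBS_Vehicle, 0 to 86.5 in Saline_GR159897 and 704 to 2317 in DNBS_GR159897. All 4 neutrophil markers reached 1 FPKM, and they summed to 0.25 to 0.64 FPKM in Saline_Vehicle, 9.14 to 533 in DNBS_Vehicle, 0.23 to 12.1 in Saline_GR159897 and 34.9 to 208 in DNBS_GR159897. The 5 macrophage markers all reached 1 FPKM and summed to 4.87 to 7.73 FPKM in Saline_Vehicle, 14.1 to 19.3 in DNBS_Vehicle, 4.26 to 10.2 in Saline_GR159897 and 9.84 to 29.0 in DNBS_GR159897. Sums over 4 nuclear-retained RNAs were 28.5 to 89.2, 23.3 to 121, 6.22 to 129 and 55.9 to 436 FPKM in the same order. The part of these measures in the result was not tested, and in whole-plexus pull-downs more cells of a type and more RNA per cell cannot be told apart.

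The number of members detected differed less than their summed level. In replicates 1 to 3, 603, 661 and 401 members reached 1 FPKM in Saline_Vehicle, and 836, 605 and 725 in DNBS_Vehicle. The counts were 230, 864 and 618 in Saline_GR159897 and 832, 1176 and 687 in DNBS_GR159897. Saline and DNBS libraries overlapped in both arms. DNBS libraries averaged 247.33 more members (exact permutation p = 0.07, adjusted 0.14), or 263.92 more without DNBS_GR159897 replicate 1 (p = 0.12 in the same exact test, adjusted 0.24). With the antagonist the difference was 96 members (exact permutation p = 0.44).

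**Figure D2:**
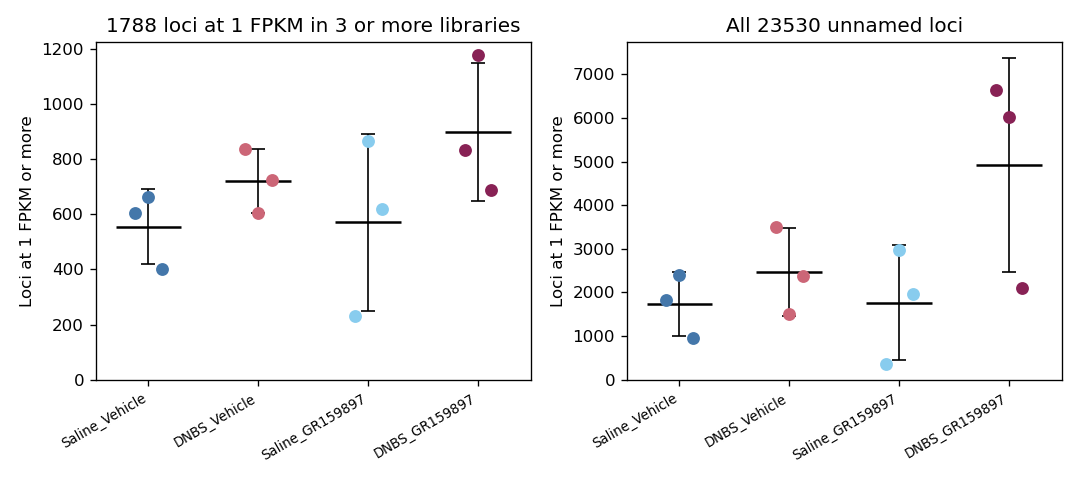
Number of unnamed loci at 1 FPKM or more (vertical axis) by group, for the 1788 members (left) and all 23530 unnamed loci (right); points are libraries, the bar is the mean and the whiskers 1 SD (n = 3). The groups overlap: members number 401 to 661 in Saline_Vehicle, 605 to 836 in DNBS_Vehicle, 230 to 864 in Saline_GR159897 and 687 to 1176 in DNBS_GR159897.

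Among members, 353 (19.7%) reached 1 FPKM in DNBS libraries only and 77 (4.31%) in saline libraries only. The shares were 9.98% and 1.76% of all loci tested, and 17.6% and 1.19% of tested loci with a name but no annotated transcript. The highest value fell in a DNBS library for 1307 members (73.1%), beside 65.7% of all loci tested and 82.4% of those with a name but no annotated transcript. It fell in DNBS_GR159897 replicate 1 for 381 members. Members that met the rule through a single group numbered 4 for Saline_Vehicle, 3 for DNBS_Vehicle, 0 for Saline_GR159897 and 22 for DNBS_GR159897; these had to differ between groups.

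The highest unnamed loci were among the highest of the whole table. MSTRG.57989, numbered between Pex2 (a peroxisome assembly factor) and Pkia (an inhibitor of protein kinase A) on chromosome 3, had the third highest mean of all tested loci, 6142.5 FPKM. Its values were 1481, 2420 and 1158 FPKM in Saline_Vehicle, 6879, 16832 and 2270 in DNBS_Vehicle, 961, 2489 and 3327 in Saline_GR159897 and 17678, 4124 and 14090 in DNBS_GR159897. The saline and DNBS ranges overlapped within the vehicle arm but not within the antagonist arm. MSTRG.90297, numbered between Myom2 (a sarcomere protein) and Mcph1 (a DNA damage and chromosome condensation factor) on chromosome 8, averaged 5745.2 FPKM and ranked 6. It stood at 1335, 2094 and 877 FPKM in Saline_Vehicle, 3845, 15222 and 2974 in DNBS_Vehicle, 659, 3296 and 4950 in Saline_GR159897 and 19411, 5999.7 and 8279 in DNBS_GR159897. Its groups did not overlap within either arm. In the linear model described below neither locus passed: averaged over both arms the log2 fold change of MSTRG.57989 was 2.17 ± 0.65 (SE; limma, adjusted p = 0.0693) and that of MSTRG.90297 2.11 ± 0.67 (adjusted p = 0.0835).

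Several of these loci kept a nearly fixed ratio to other loci over the 12 libraries. The highest locus of the table, MSTRG.38639, has a name (Cmss1) but no annotated transcript, and ranged from 2885 to 99453 FPKM. MSTRG.90297 spanned 29.5-fold between its lowest and highest library, yet was 0.188 to 0.277 of MSTRG.38639 in every library, a 1.47-fold range. MSTRG.35274, numbered between Gramd4 and Cerk on chromosome 15, spanned 23-fold in level, while its ratio to the same locus stayed between 0.00205 and 0.00329. MSTRG.46171 and MSTRG.31177, numbered on chromosomes 18 and 14, kept a ratio of 4.18 to 5.59 to each other while MSTRG.46171 spanned 11.1-fold. Against MSTRG.38639 the ratio of MSTRG.46171 varied 9.41-fold. The pairs were chosen after their values were seen, and the libraries share 1 assembly and 1 normalization, so this is a description without a test.

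**Figure D3:**
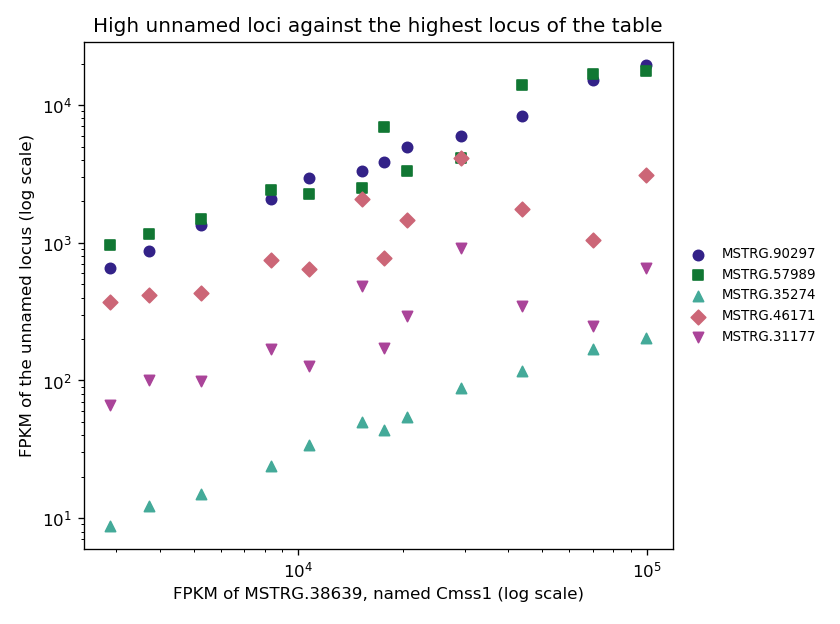
FPKM of 5 high unnamed loci (vertical axis, log scale) against FPKM of MSTRG.38639, named Cmss1 (horizontal axis, log scale), 1 point per locus and library. MSTRG.90297 and MSTRG.35274 run parallel to it (ratios 0.188 to 0.277 and 0.00205 to 0.00329), while MSTRG.46171 and MSTRG.31177 scatter together at a ratio of 4.18 to 5.59 to each other.

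The remaining loci of the 10 highest behaved differently from one another. MSTRG.10368, on chromosome 10, ran from 6.37 to 37.1 FPKM in saline libraries and from 68.2 to 653 in 5 DNBS libraries, and reached 3994 in DNBS_GR159897 replicate 1. MSTRG.84220, numbered beside Fcgbp (a mucus protein) on chromosome 7, was at 213, 6.97 and 302 FPKM in DNBS_Vehicle and 5.85, 348 and 140 in DNBS_GR159897, against 1.8 to 11.6 in saline libraries; in each DNBS group 1 library lay within the saline range. MSTRG.76755, on chromosome 5, ranged from 1.6 to 189 FPKM in saline libraries and from 20.4 to 696 in DNBS libraries and overlapped in both arms. Of the 10, 4 passed as higher in the test for DNBS averaged over both arms: MSTRG.10368, MSTRG.75580, MSTRG.83843 and MSTRG.35274. Of all loci tested 2.29% passed as higher. The 10 were picked by their mean over all 12 libraries, so high values in DNBS libraries helped to place them there.

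Each locus was then compared between groups with limma on log2(FPKM + 1), fitted over all 24256 loci of the table that met the same threshold, with Benjamini-Hochberg adjustment over all of them and a threshold of 0.05. Fold changes are on that scale and understate the change of low loci. In DNBS_Vehicle against Saline_Vehicle 20 members passed, all higher. Of all loci tested 0.202% passed as higher, 0.0247% as lower and 0.227% in either direction, against 1.12% of the members and 0.18% of loci with an annotated transcript; members made up 40.8% of the 49 loci called higher and 7.37% of those tested. No library of the 2 groups overlapped for any of the 20. The same held for every member that passed between 2 groups, so it adds no support. The log2 fold changes of the 20 ran from 2.82 to 5.57, and 6 of these loci had more than 1 transcript. The median log2 fold change over all members was 0.18, beside 0.03 over all loci. The count rested on every library of both groups: it was 1, 5 and 0 without Saline_Vehicle replicate 1, 2 or 3, 7, 6 and 5 without DNBS_Vehicle replicate 1, 2 or 3, and 36 without DNBS_GR159897 replicate 1. Over all loci these counts were 1, 12 and 0, 18, 11 and 24, and 160.

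The locus with the smallest p was MSTRG.71080, numbered between Adgrf3 (an adhesion-type receptor) and Garem2 (an adaptor of growth factor signalling) on chromosome 5. It was at 1.63, 0 and 0.48 FPKM in Saline_Vehicle and at 99.4, 107 and 37.7 in DNBS_Vehicle. In the antagonist arm it was at 0.74, 2.3 and 5.14 FPKM with saline and 57.9, 65.2 and 34.7 with DNBS. The 6 DNBS libraries all lay above the 6 saline libraries. Its log2 fold change was 5.57 ± 0.58 (SE; limma, adjusted p = 0.00416) in the vehicle arm and 4.78 ± 0.41 (adjusted p = 0.000191) over both arms.

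MSTRG.94065, numbered between Gm45529 and Zfhx3 (a homeodomain transcription factor) on chromosome 8, was listed at 0 in all 6 saline libraries. It reached 8.38, 27.9 and 13.8 FPKM in DNBS_Vehicle and 5.62, 16.8 and 7.34 in DNBS_GR159897. No fold is given against a group listed at 0; its log2(FPKM + 1) difference passed in both arms (limma, adjusted p = 0.00546 and 0.0169).

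MSTRG.25903, numbered between Fgfr4 (a fibroblast growth factor receptor) and Rab24 (a small GTPase linked to autophagy) on chromosome 13, held 10 assembled transcripts. It was at 2.14, 1.11 and 1.01 FPKM in Saline_Vehicle and 96.5, 175 and 45.5 in DNBS_Vehicle. It was at 1.05, 1.35 and 7.22 FPKM in Saline_GR159897 and 88.9, 155 and 48.1 in DNBS_GR159897. Again no DNBS library overlapped a saline library, and the log2 fold change over both arms was 4.99 ± 0.46 (SE; limma, adjusted p = 0.000234). Its next number, MSTRG.25904, also passed (4.43 over both arms).

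2 of the 10 highest members were among the 20. MSTRG.75580, numbered between Gm43123 and Rhbdd2 on chromosome 5, ran from 5.4 to 19.7 FPKM in saline libraries and from 58.8 to 466 in DNBS libraries. MSTRG.83843, numbered between Ceacam19 and Pvr (a cell adhesion receptor also used by poliovirus in humans) on chromosome 7, ran from 0.48 to 9.41 FPKM in saline libraries and from 59.9 to 456 in DNBS libraries. Neither range overlapped. Over both arms their log2 fold changes were 4.01 ± 0.51 and 4.64 ± 0.58 (SE; limma, adjusted p = 0.00177 and 0.00157).

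**Figure D4:**
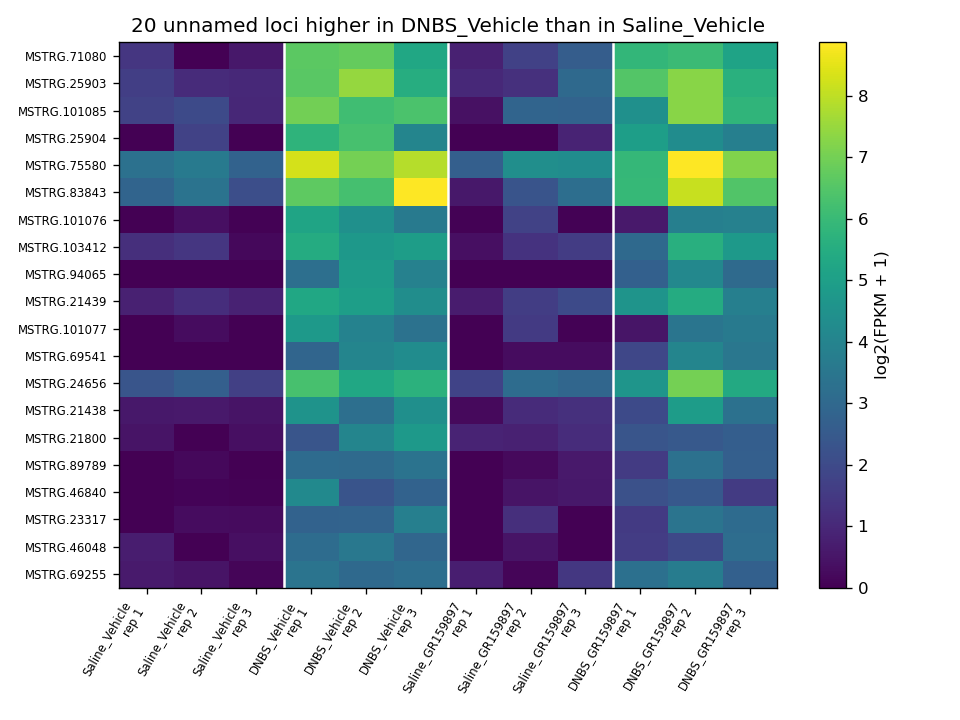
log2(FPKM + 1) (colour) of the 20 unnamed loci that passed in DNBS_Vehicle against Saline_Vehicle, 1 row per locus and 1 column per library, with white lines between groups. All 20 are also higher in DNBS_GR159897 than in Saline_GR159897 on average, and 16 passed that test, whose libraries entered the choice of the 20 only through the member rule and the pooled spread.

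The antagonist arm shares no library with the vehicle arm, although the fit pools their spread. Of the 20 loci, all 20 had the same sign there, and 16 passed (80.0% of the 20, and 28.1% of the 57 that passed in the antagonist arm). Of the loci with an annotated transcript that passed in the vehicle arm, 27 of 29 had the same sign and 15 (51.7%) passed. Of those with a name but no annotated transcript, 6 of 6 had the same sign and 4 (66.7%) passed. A shared sign was thus usual for loci called in the vehicle arm and not particular to members. Over the 1744 members with a nonzero change in both arms 68.5% had the same sign, beside 69.7% of loci with an annotated transcript, and the log2 fold changes correlated at 0.58 across loci, which are not independent.

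**Figure D5:**
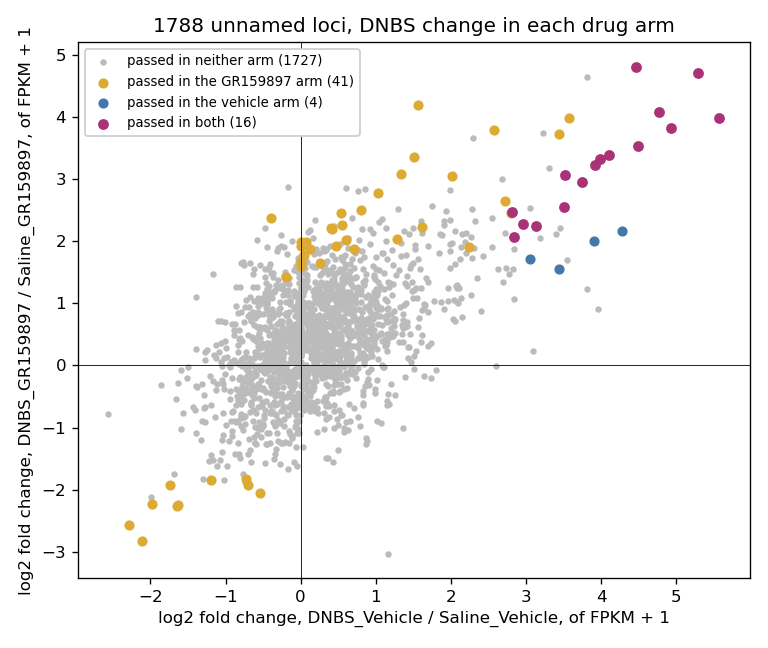
log2 fold change of DNBS against saline, on FPKM + 1, in the vehicle arm (horizontal axis) and the GR159897 arm (vertical axis), 1 point per unnamed locus; colour marks the arm in which it passed. 16 loci passed in both arms and lie in the upper right.

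In DNBS_GR159897 against Saline_GR159897, 57 members passed, 47 higher and 10 lower. Of all loci tested 2.73% passed, 1.89% higher and 0.837% lower, against 2.63% of members higher and 0.559% lower. For loci with a name but no annotated transcript 3.7% were higher. Of the 47, 9 reached 1 FPKM only in the 3 DNBS_GR159897 libraries, so they met the threshold through the group where they were high and had to differ. With every locus that met it through a single group set aside, 38 of 1759 members (2.16%) were higher, beside 1.28% of all loci and 2.31% of those with a name but no annotated transcript. Without DNBS_GR159897 replicate 1, 50 were higher and 1 lower, and 327 of all loci passed. The count was 0, 32 and 2 without Saline_GR159897 replicate 1, 2 or 3, 16, 26 and 21 without Saline_Vehicle replicate 1, 2 or 3, and 203 without DNBS_GR159897 replicate 3. Over all loci these counts were 3, 393 and 6, 175, 259 and 210, and 3503. Without DNBS_GR159897 replicate 3 the share that passed was thus larger among all loci than among members.

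The 2 loci with the smallest p among the lower were MSTRG.97923 and MSTRG.84568. MSTRG.97923, numbered between Tln2 (talin 2, which links integrins to actin) and Vps13c (a lipid transfer protein) on chromosome 9, was at 12.1, 6.67 and 3.76 FPKM in Saline_GR159897 and at 0, 0.35 and 0 in DNBS_GR159897. In the vehicle arm it was at 4.06, 3.95 and 5.93 FPKM with saline and 0, 0 and 1.12 with DNBS. The groups did not overlap in either arm, and its log2 fold change was -2.82 ± 0.47 (SE; limma, adjusted p = 0.0199) with the antagonist and -2.12 ± 0.47 (adjusted p = 0.103) with vehicle. MSTRG.84568, numbered beside Lsm14a (an RNA-binding protein of processing bodies) on chromosome 7, was at 6.4, 13.5 and 9.76 FPKM in Saline_GR159897 and at 0, 0.38 and 3.05 in DNBS_GR159897. In Saline_Vehicle it was at 4.72, 5.1 and 5.95 FPKM, and in DNBS_Vehicle at 0, 0.17 and 0.8. All 6 saline libraries lay above all 6 DNBS libraries for MSTRG.97923 and for MSTRG.84568. Over both arms MSTRG.97923 fell by 2.47 and MSTRG.84568 fell by 2.42 on the log2 scale (limma, adjusted p = 0.00204 and 0.00418).

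The antagonist alone moved no member past the threshold. In Saline_GR159897 against Saline_Vehicle 0 members passed (limma, 19 at an unadjusted p under 0.05), as did 0% of all loci. The smallest p belonged to MSTRG.97811, at 4.72, 2.11 and 1.7 FPKM in Saline_Vehicle and 0, 0.9 and 0 in Saline_GR159897 (limma, adjusted p = 1.0). It reached 1 FPKM in Saline_Vehicle alone, so the threshold fixed its direction.

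In DNBS_GR159897 against DNBS_Vehicle 2 members passed, both higher, where 0.309% of all loci passed as higher, 0.0165% as lower and 0.326% in either direction. MSTRG.78848, numbered between Plekha8 and Gm28402 on chromosome 6, was at 3.54, 2.16 and 3.35 FPKM in DNBS_GR159897. MSTRG.92803, numbered between 0610038B21Rik and Prmt9 (an arginine methyltransferase) on chromosome 8, was at 3.11, 2.03 and 3.32 FPKM. Both were listed at 0 in the other 9 libraries, so both met the rule only through the group in which they were high and had to differ (limma, adjusted p = 0.0444 and 0.0454). The count was 48 without DNBS_GR159897 replicate 3, 9 without DNBS_GR159897 replicate 2, and 0 without any single one of the other 10 libraries. Without DNBS_GR159897 replicate 3 or 2, 1222 or 180 of all loci passed, a larger share than among members each time. MSTRG.57905, numbered between Myt1 and Polr3k on chromosome 2, had the smallest p among the lower: 5.18, 2.62 and 9.54 FPKM in DNBS_Vehicle and 0, 0.79 and 0.64 in DNBS_GR159897 (limma, adjusted p = 0.0667).

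No member passed the test of a DNBS change that differed between the drug arms. The interaction of DNBS and GR159897 gave 0 calls (limma, 95 at an unadjusted p under 0.05), and 0% of all loci passed. MSTRG.65549, numbered beside Klf4 (a transcription factor of epithelial and inflammatory cells) on chromosome 4, had the smallest p in the direction of a smaller DNBS change with the antagonist: 2.98, 17.0 and 2.14 FPKM in DNBS_Vehicle, 0 in all 3 Saline_Vehicle libraries, and at most 0.61 in the 6 antagonist libraries (interaction adjusted p = 0.759, limma). It reached 1 FPKM in DNBS_Vehicle alone, so the threshold fixed this direction too.

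Averaged over both drug arms, 105 members passed for DNBS, 88 higher and 17 lower. That is 4.92% and 0.951% of members, beside 2.29% and 2.27% of all loci tested (4.56% in either direction), 1.62% and 4.05% of loci with an annotated transcript, and 2.69% and 0.165% of loci with a name but no annotated transcript. Of the 88, 53 had no overlap between saline and DNBS libraries in either arm (60.2%), and so had 13 of the 17 (76.5%). Among all loci called, the shares without overlap were 55.1% of the higher and 78.8% of the lower, and over all loci tested, called or not, 2.31% and 3.73%. The median log2 fold change was 0.32 over all members and 0.15 over all loci. The count was 146 without DNBS_GR159897 replicate 1, and 44, 62 and 42 without Saline_Vehicle replicate 1, 2 or 3. It was 56 without DNBS_Vehicle replicate 1, 44 and 52 without Saline_GR159897 replicate 1 or 3, and 218 without DNBS_GR159897 replicate 3. Over all loci these counts were 1369, 250, 466 and 223, then 445, 275, 392 and 3191. Without DNBS_GR159897 replicate 3 the share that passed was larger among all loci than among members.

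For 15 members (0.839%) all 6 DNBS libraries were at 1 FPKM or more and all 6 saline libraries below it, and 3 (0.168%) showed the reverse, beside 0.231% and 0.115% of all loci tested. Of the 15, MSTRG.94065 was the only one at 0 in every saline library. MSTRG.69541, numbered between H6pd and Gpr157 on chromosome 4, was at 2.72 to 18.8 FPKM with DNBS and at most 0.24 with saline. MSTRG.89789, numbered between Ccl25 (a chemokine of gut and thymus) and Cers4 (a ceramide synthase) on chromosome 8, was at 1.93 to 9.38 FPKM with DNBS and at most 0.51 with saline. These loci were picked for this pattern, so their values are a description.

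Called members sometimes came in runs. Of the 105, 21 (20.0%) had another called member at the next number, in 10 runs that each changed in 1 direction, all higher; of all 1788 members, 350 had another member at the next number. Neighbours can be pieces of one transcript and are not independent. MSTRG.21438 and MSTRG.21439, between Fbxo33 and Lrfn5 on chromosome 12, had log2 fold changes of 3.03 and 3.57 over both arms. MSTRG.101076 and MSTRG.101077 had 3.22 and 2.96.

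Annotated neighbours in numbering seldom passed in the same direction, whether or not the member itself had passed. A neighbour that did not pass may still have changed. Of the 88 higher members 76 had a tested annotated neighbour in numbering, and for 2 of these (2.63%) such a neighbour also passed as higher. Among members that did not pass, it was so for 39 of 1422 (2.74%). The pair were MSTRG.75580, with Gm43123 (log2 fold change 2.84, limma adjusted p = 0.00352), and MSTRG.29226, with Galnt15 (1.32, adjusted p = 0.0393). Of the lower members 14 had such a neighbour, and it was lower for 1 (7.14%), beside 64 of 1422 members that did not pass (4.5%): MSTRG.44717, with Nrep (-1.95, adjusted p = 0.0133).

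Members were spread over the genome. The chromosomes with the most placed members were 4 and 12, with 121 each, which is 6.83% of placed members. Chromosome 12 held 5.19% of all placed unnamed loci and 3.49% of tested annotated loci, and chromosome 4 held 5.95% and 6.36%. Chromosome 11 held 5.93% of members, beside 6.1% of all placed unnamed loci and 8.41% of tested annotated loci. On Y, 9 members were placed.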

How the data were processed

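The authors deposited 1 FPKM value per locus and library, to 2 decimals, per the file header. StringTie 1.3, HISAT2 2.0, cutadapt 1.10 and FastQC 0.10.1 are listed in the submitters' processing notes, without their roles. Genome build, strand use and depth per library are not stated there, so no counting interval is given. Complementary DNA was made from little RNA with the SMART-seq v4 kit, per the labels' protocols.

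Groups came from the labels; all 12 columns were mapped and 0 were left over. The 3 blank values, all Gfap in Saline_Vehicle, left 24255 of 24256 loci in comparisons using that group. Tests per locus used log2(FPKM + 1), not rescaled, and limma 3.58.1 in R 4.3.3 (1 coefficient per group, 8 residual degrees of freedom, trended and robust prior, Benjamini-Hochberg adjustment, threshold 0.05). Library totals were compared by exact permutation within the other factor, adjusted over 6 tests. Tables used Python 3.11.15, pandas 2.3.3 and numpy 2.4.6, and plots matplotlib 3.10.9. On simulated data for DNBS_Vehicle against Saline_Vehicle (24255 loci, 3 runs), 1.3%, 19.3%, 54.0% and 79.3% of log2 changes of 1, 2, 3 and 4 were recovered, with 3.67 false calls per run. The noise was normal, and changes were placed only in loci with a mean log2(FPKM + 1) above 1. The recovery rates therefore do not cover lower loci, among them the 1074 members that averaged under 1 FPKM.

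Loci were named by rule: in each comparison and direction the 2 with the smallest p that passed without overlap between groups, or the 1 with the smallest p where none passed, and the 10 with the highest mean. Others were chosen after their values were seen. The members, marker lists and comparisons were chosen with earlier results of these data known. Alternatives for the tests per locus were another pseudocount, no filter, a replicate block, sex, rescaling, library weights and leaving out each library. For library totals they were all unnamed loci, the 10 highest members set aside, a replicate block and leaving out each library.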

Additional observations from a re-analysis of the deposited data

How the results depend on the processing

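No result reversed. The DNBS differences in share and log2 sum passed under every alternative run except the replicate block, which left them at 4.58 points and 2.0 (exact permutation p = 0.0312, the smallest it allows, adjusted 0.0938). Deviations from group means correlated at -0.12 to 0.22 between same-numbered libraries (4 of 18 over 0.1). Differently numbered libraries were not compared, so these values cannot tell whether the numbers mark a pairing. Leaving out 1 library at a time gave DNBS differences of 3.72 to 5.21 points, 1.67 to 2.2 on the log2 sum and 162.17 to 320.67 loci, and antagonist differences of 0.97 to 2.46 points, 0.43 to 0.96 and 22.67 to 181.17 loci. Members passing ranged from 0 to 36 in DNBS_Vehicle against Saline_Vehicle, 0 to 203 in DNBS_GR159897 against Saline_GR159897, 0 to 48 in DNBS_GR159897 against DNBS_Vehicle and 42 to 218 averaged over arms, and stayed 0 in Saline_GR159897 against Saline_Vehicle and in the interaction. At the highest counts of those 4 comparisons, 160, 3503, 1222 and 3191 of all loci passed.

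The counts of 20, 57, 2 and 105 in those 4 comparisons, beside 55, 662, 79 and 1106 of all loci, depended on the settings. With no filter they were 8, 1, 0 and 39, beside 14, 5, 0 and 195 of all loci, in a test over more loci. With library weights they were 70, 261, 5 and 393, beside 397, 3156, 125 and 4627 of all loci. The rise was thus not particular to the members. For DNBS_GR159897 against Saline_GR159897 the count was 8 with a pseudocount of 0.1, 27 with the replicate block and 17 with sex as a covariate. All loci gave 70, 248 and 179. For DNBS_GR159897 against DNBS_Vehicle it was 0 in each of these settings, beside 1, 0 and 1 of all loci. Scaling to the annotated total made the count 4 in DNBS_GR159897 against DNBS_Vehicle, beside 68 of all loci. It moved the median of all loci from 0.11 to 0.39 in that comparison and from 0.19 to 0.45 in DNBS_GR159897 against Saline_GR159897. Without DNBS_Vehicle replicate 2 and DNBS_GR159897 replicate 1 together, an alternative chosen after seeing the data, the counts were 52 in DNBS_Vehicle against Saline_Vehicle, 0 in DNBS_GR159897 against DNBS_Vehicle and 179 averaged over arms. All loci gave 138, 3 and 1506 there. Beyond the smaller or larger sets of loci and libraries, the cause was not tested.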

Other observations

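Members placed on chromosome Y did not follow sex. The 9 such loci summed to 0.45 to 15.67 FPKM in the 7 male libraries and 0.71 to 182.77 in the 5 female libraries. Without MSTRG.104396, at 168.79 FPKM in DNBS_GR159897 replicate 1, the sums were 0.42 to 14.96 and 0.3 to 35.9. By contrast, 4 annotated genes of chromosome Y summed to 9.97 to 18.2 FPKM in males and 0 to 0.07 in females. The placement rests on numbering alone.

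DNBS_GR159897 replicate 1 exceeded the highest of the other 11 libraries, taken as at least 1 FPKM, by 10 times or more at 16 members. MSTRG.75709 was at 210.05 FPKM there and at most 3.33 elsewhere, and the next number, MSTRG.75710, was at 65.72 and at most 1.76. Both were chosen after their values were seen.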
